A study of Mus with 18 samples.

Results

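The lysosomal enzyme and membrane genes were a set of 32 named genes, taken by symbol from the 54532 genes of the count table, and 31 of them had enough counts to be tested. They fell into 10 cathepsins and other proteases, 6 glycosidases, 5 lipid hydrolases and their activators, 9 membrane proteins, and 2 transcription factors, Tfeb and Tfe3. RNA sequencing covered 18 libraries, 3 for each of 6 groups, all from RAW264.7, a transformed mouse line with macrophage features. Control cells received no LPS, and a second group received lipopolysaccharide (LPS), the endotoxin of Gram-negative bacteria, at 1 µg/mL. In each of the other 4 groups LPS at that dose was combined with 100 µM of a polyphenol or its cysteine adduct, which was caffeic acid (CA), chlorogenic acid (CGA), the caffeic acid adduct (CACys) or the chlorogenic acid adduct (CGACys). Exposure lasted 6 h in every group. CGA is the ester of caffeic acid with quinic acid. No group received a compound without LPS or cysteine alone, the vehicle is not given in the sources used here, and all results come from 1 cell line.

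Lysosomes break down proteins, glycans and lipids in an acid lumen, and in macrophages they also digest engulfed microbes and prepare antigens for presentation. The hydrolases reach the lysosome mostly by mannose 6-phosphate tags, and glycosylated membrane proteins such as LAMP1 and LAMP2 line its boundary. TFEB and TFE3, members of the MiT/TFE family, bind E-box sequences near many lysosomal and autophagy genes and are held in the cytoplasm when phosphorylated by mTORC1 at the lysosome.

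Levels are given in CPM, counts scaled to a common library size with a trimmed mean of M values (TMM) factor, with values for replicates 1, 2 and 3 in that order and mean ± SD for n = 3. CPM does not allow for gene length, so levels are compared between groups and not between genes. A call means that edgeR's quasi-likelihood test gave an adjusted p of 0.05 or less, after Benjamini-Hochberg adjustment over all 13251 genes tested. Log2 fold changes carry the standard error (SE). Because no label states that the 3 replicates of a group were grown apart, the p-values cover only the spread between these libraries, which may be technical.

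Libraries held 16105817 to 25624935 counts. The tested lysosomal genes had a median of 6962 counts per library, against 444.6 for all tested genes, and none had fewer than 73 counts in any library. All 12 macrophage markers were detected in every group, with a summed level of 7321 to 8709 CPM. Summed markers of dendritic cells reached at most 11.1 CPM, of neutrophils and mast cells 16.9, of lymphocytes 1.72, of fibroblasts 8.70 and of epithelium 0.805. Replicate 2 of LPS + CA stood apart from its fellows, with 4.81% of counts in ribosomal protein genes against 4.06% and 4.06%, and results that rest on it are also given without it.

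Cd63, which encodes a tetraspanin of late endosomes and lysosomes, could not be assessed. It had between 0 and 5 counts in every library, 15 counts in all, and none in the control and LPS + CA libraries, where a count of 0 allows at most 0.123 to 0.162 CPM per library by counting error alone. A pseudogene with its name was listed at 0 in every library, and the handling of reads shared between copies is not given in the sources used here, so its level is uncertain.

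LPS against control asked how the endotoxin alone altered these genes. Tfeb, the master regulator of lysosomal biogenesis, fell 4.99-fold, Laptm5, Lgmn, Neu1 and Ctsd fell, and Ctsz, Ctsh and Lamp2 rose. Of the 31 tested genes 25 were called, 6 higher and 19 lower, which is 80.6%. Of all tested genes 62.2% were called, 30.6% higher and 31.6% lower. The median log2 change was -0.19 for the set and -0.02 for all tested genes, and the median absolute change was 0.26 against 0.39. The 32 genes together took 2.37 ± 0.0185% of a library's raw counts in control and 1.81 ± 0.0260% with LPS. Scaled with the TMM factors the fall was smaller, from 20745, 20994 and 20694 CPM in control to 18559, 19150 and 18309 CPM with LPS. In RNA from whole cultures, fewer cells carrying a transcript and less transcript per cell cannot be told apart.

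**Figure D1:**
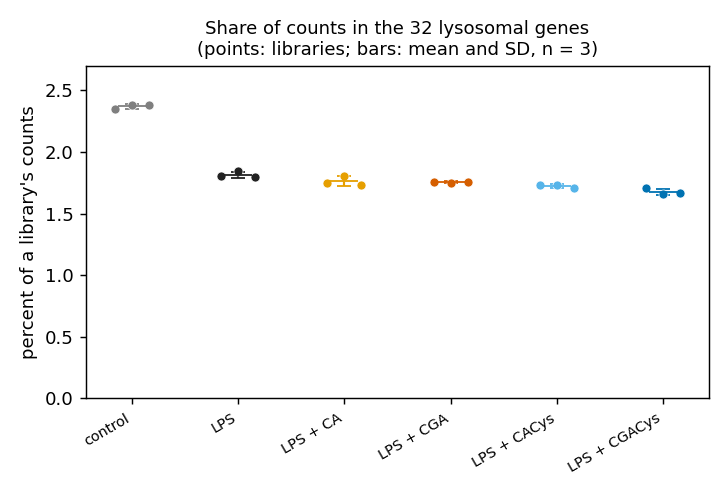
Percent of each library's counts that fell in the 32 lysosomal genes (vertical axis, from 0) for the 6 groups, with points for libraries and bars for mean and SD (n = 3). Control libraries lie between 2.35% and 2.38%, and the 15 LPS libraries between 1.66% and 1.84%. These are shares of raw counts without TMM factors, and on the TMM scale the fall from control to LPS alone is smaller.

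Among the transcription factors, Tfeb (ENSMUSG00000023990, chromosome 17, 47737037 to 47792416, GRCm38.p6) was at 23.1, 23.6 and 23.3 CPM in control and 4.80, 4.08 and 5.12 CPM with LPS. Every LPS library lay below every control library, a log2 change of -2.32 (SE 0.11, edgeR adjusted p = 4.1e-17). Tfe3, the paralog that shares many Tfeb targets, was at 83.2, 83.7 and 82.6 CPM in control and 83.7, 86.7 and 82.6 CPM with LPS, and the groups overlapped. Its log2 change of 0.02 had a 95% interval of -0.08 to 0.12. The other family members were given as part of a list of nutrient sensing and TFEB control genes. Mitf, the melanocyte and osteoclast factor, rose from 42.6 ± 1.63 to 120.1 ± 3.07 CPM (2.82-fold, edgeR adjusted p = 1.56e-19). Tfec, a macrophage-restricted member, rose from 0.586 ± 0.109 to 5.36 ± 0.397 CPM (log2 3.17, edgeR adjusted p = 6.44e-13), on low counts in control.

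**Figure D2:**
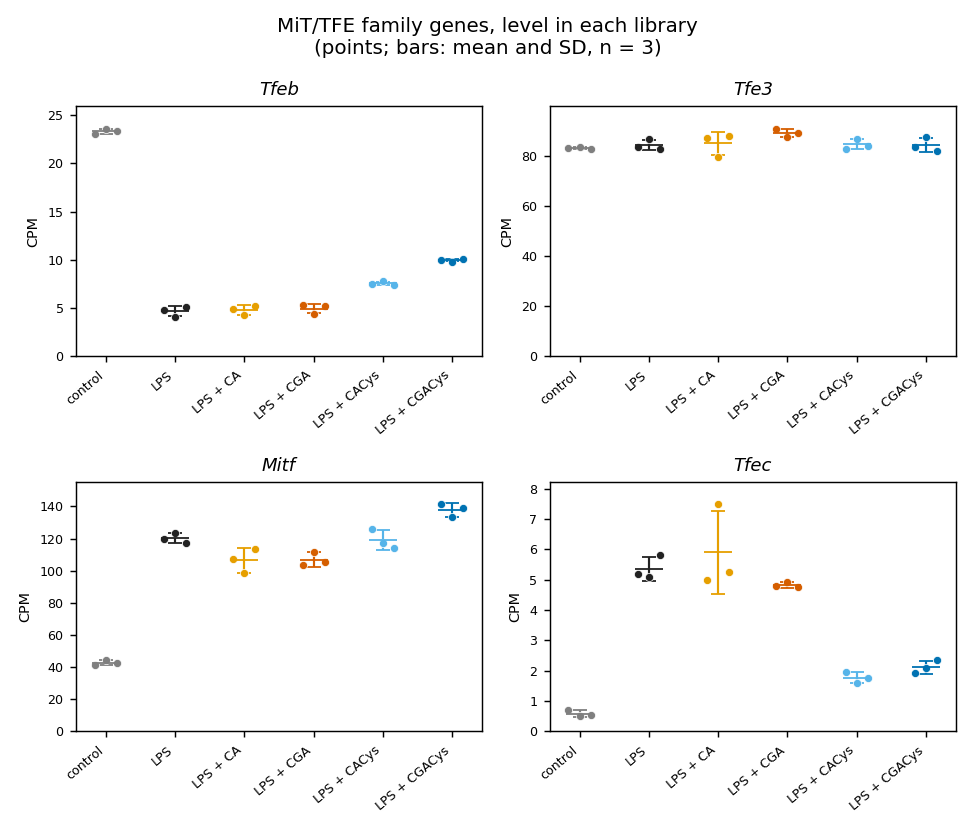
Level in CPM (vertical axes, from 0) of the 4 MiT/TFE family genes in each library (points) of the 6 groups, with mean and SD (bars, n = 3). Tfeb is highest in control, lowest with LPS alone, CA and CGA, and between them with CACys (7.53 CPM) and CGACys (9.94 CPM), while Tfec is lower with both adducts than with LPS alone and Tfe3 lies between 79.7 and 90.8 CPM throughout.

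Of the 10 proteases 3 rose and 6 fell. Ctsz (chromosome 2, 174427494 to 174439039), a carboxypeptidase, was at 1118, 1086 and 1082 CPM in control and 1992, 2079 and 1972 CPM with LPS (log2 0.88, SE 0.04, adjusted p = 4.77e-17). Ctsh (chromosome 9, 90054267 to 90076095), an aminopeptidase, was at 23.9, 21.7 and 20.4 CPM in control and 36.9, 41.1 and 38.1 CPM with LPS (log2 0.81, SE 0.08). Both had all LPS libraries above all control libraries. Lgmn (chromosome 12, 102394082 to 102439728), the asparaginyl endopeptidase that trims other cathepsins, moved the other way, from 317, 334 and 338 CPM to 204, 219 and 204 CPM (log2 -0.65, SE 0.05). Ctsd (chromosome 7, 142375910 to 142387827), the main aspartic protease, was at 2469.9, 2503 and 2468 CPM in control and 1664, 1725 and 1688 CPM with LPS (log2 -0.55, SE 0.05). For Lgmn and Ctsd every LPS library lay below every control library. Ctsb, a cysteine protease, was at 3556, 3619 and 3609.7 CPM in control and 3250.0, 3358 and 3193 CPM with LPS, a small fall without overlap (log2 -0.14, SE 0.04). Tpp1, the tripeptidyl peptidase (log2 -0.40), Ctsl, an endopeptidase (-0.40), and Ctsa, the carboxypeptidase that stabilises sialidase and beta-galactosidase (-0.21), also fell, and Ctsc, the dipeptidyl peptidase that activates granule serine proteases, rose (0.34). Ctss, which cleaves the invariant chain of MHC class II, had a log2 change of -0.05 and was not called. The edgeR adjusted p of these called proteases other than Ctsz ran from 1.86e-12 for Lgmn to 0.0018 for Ctsb.

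Among the 6 glycosidases Neu1 (chromosome 17, 34931253 to 34937297), the lysosomal sialidase, changed most. It was at 152, 141 and 154 CPM in control and 97.05, 102 and 106 CPM with LPS, without overlap (log2 -0.55, SE 0.05, edgeR adjusted p = 3.02e-10). Gla, alpha-galactosidase A, and Hexa, the alpha subunit of beta-hexosaminidase A, fell by 0.23 and 0.20 on the log2 scale. Naglu, an enzyme of heparan sulfate breakdown, rose (0.16, adjusted p = 0.0163), a call lost without control replicate 1 and with upper-quartile factors. Gaa, the glycogen-degrading alpha-glucosidase, and Glb1, beta-galactosidase, had log2 changes of 0.01 and -0.02, with 95% intervals of -0.10 to 0.13 and -0.11 to 0.07.

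All 5 lipid genes were called. Asah1, acid ceramidase (log2 -0.43), Psap, the saposin precursor (-0.38), Grn, progranulin (-0.26), and Smpd1, acid sphingomyelinase (-0.18), fell, while Lipa, the acid lipase that frees cholesterol from its esters, rose (0.17). The edgeR adjusted p ran from 2.39e-09 for Asah1 and 5.21e-09 for Psap to 0.00342 for Lipa and 0.0288 for Smpd1. The Smpd1 call was lost without control replicate 1 or 2 (-0.11 without replicate 2) or LPS replicate 1 or 3 and by DESeq2, and the Lipa call with upper-quartile factors.

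Of the 8 membrane protein genes tested 1 rose and 5 fell. Laptm5 (chromosome 4, 130912890 to 130936148), a lysosomal membrane protein of blood cells, was at 1148, 1146 and 1115 CPM in control and 588, 621 and 592 CPM with LPS, a 1.89-fold fall without overlap (edgeR adjusted p = 1.09e-17). Lamp2 (chromosome X, 38399647 to 38456460), which also serves chaperone-mediated autophagy, rose from 593, 583 and 556 CPM to 846, 849 and 821 CPM (log2 0.54, SE 0.04). Lamp1, its abundant relative, was at 782, 777 and 765 CPM in control and 723, 745 and 729.6 CPM with LPS, and was not called (log2 -0.08, edgeR adjusted p = 0.0594). With upper-quartile factors, which moved the median of all genes from -0.02 to -0.10, Lamp1 was called lower at -0.16. Mcoln1, the lysosomal calcium channel TRPML1, was at 47.7, 44.6 and 46.3 CPM in control and 42.2, 41.1 and 38.6 CPM with LPS (log2 -0.19, edgeR adjusted p = 0.0196), and its call was lost without control replicate 1 or 3 or LPS replicate 3 and by DESeq2. Scarb2, also called LIMP-2, a lysosomal membrane glycoprotein, fell by 0.49 on the log2 scale, Cd68, the macrophage sialomucin macrosialin, by 0.41, and Gpnmb, a transmembrane glycoprotein, by 0.12. The Gpnmb call was lost without control replicate 2 or LPS replicate 3, and Cln3, mutated in a childhood form of neuronal ceroid lipofuscinosis, was not called (-0.04).

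**Figure D3:**
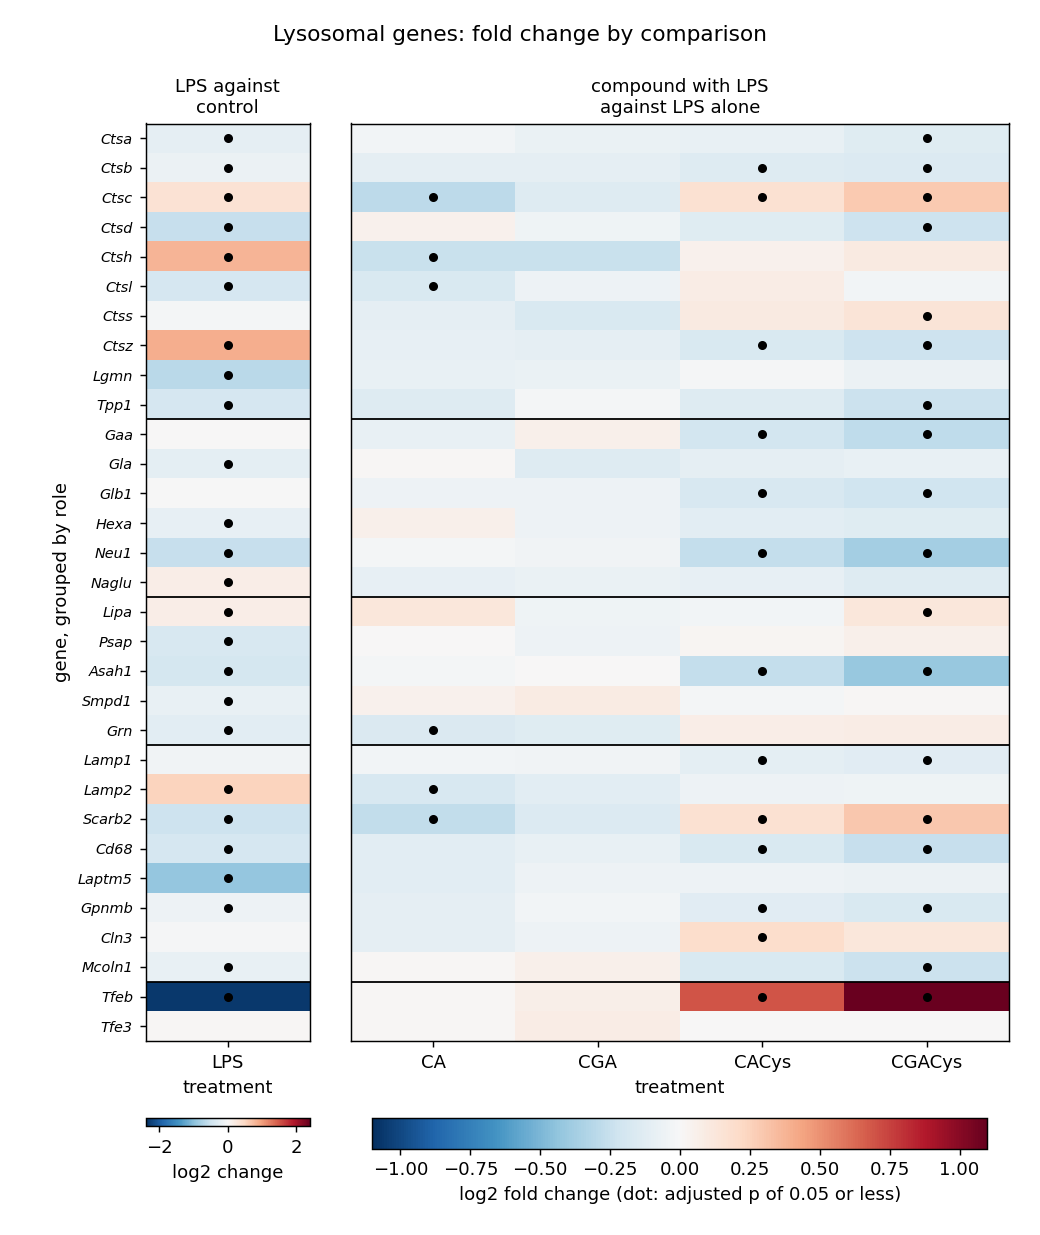
Log2 fold change (colour, with a wider scale for LPS against control) of the 31 tested lysosomal genes in each comparison with control or with LPS alone, with genes grouped by role between black lines and a dot where the adjusted p was 0.05 or less. LPS has 25 dots, CA 6, CGA none, CACys 13 and CGACys 18, and Tfeb has the deepest colours of both scales.

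The other lysosomal lists were counted in the same way with LPS, where 62.2% of all tested genes were called, 30.6% higher and 31.6% lower. Of 33 further lysosomal hydrolases 2 were called higher and 19 lower, with a median log2 change of -0.35. Sgsh, the heparan N-sulfatase, fell from 69.5 ± 0.980 to 13.3 ± 1.37 CPM, and Acp2, an acid phosphatase, rose from 77.2 ± 0.848 to 163 ± 1.56 CPM. Of 18 proton pump subunits 5 rose and 8 fell, and of 22 transporters and channels 9 rose and 11 fell. Tcirg1, the pump subunit used by osteoclasts and macrophages, rose 2.02-fold, and Tpcn1, an endolysosomal cation channel, fell 5.02-fold. Of 8 sorting genes 3 rose and 2 fell, with both mannose 6-phosphate receptor genes, Igf2r and M6pr, among those that rose (log2 1.44 and 0.94). Of 19 nutrient sensing and TFEB control genes 6 rose and 5 fell, of 22 autophagy genes 7 rose and 10 fell, and of 6 cathepsin inhibitors 4 rose and 2 fell. The autophagy receptor gene Sqstm1 rose 4.22-fold, and Serpinb9, a serpin gene on the inhibitor list, 3.84-fold. The 10 osteoclast markers, which hold lysosomal genes, summed to 199 to 207 CPM in control and 473 to 513 CPM with LPS. Of the 5 tested, 1 was called higher and 2 were called lower, with a median log2 change of 0.57 against -0.02 for all tested genes. Acp5 and Calcr were at 0 in control and Atp6v0d2 at 0 with LPS. The part of these markers in the result was not tested.

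The 4 compound groups were each compared with LPS alone, and these comparisons share the 3 LPS libraries. The parent acids changed few of the genes. With CA 6 of 31 were called, all lower, or 19.4%, against 7.72% of all tested genes called, 2.3% higher and 5.42% lower. Ctsc (chromosome 7, 88278024 to 88315861) was at 487, 505 and 467 CPM with LPS and 407, 393 and 392 CPM with CA (log2 -0.29, SE 0.04, edgeR adjusted p = 5.76e-05). Scarb2 (chromosome 5, 92441311 to 92505657) was at 99.9, 102 and 97.3 CPM with LPS and 84.0, 81.5 and 82.0 CPM with CA (log2 -0.27, SE 0.05, edgeR adjusted p = 0.000446). In neither gene did the groups overlap, and both calls held in all 14 alternatives.

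The remaining CA calls were smaller or less stable. Lamp2 was at 753, 748 and 732 CPM with CA, below every LPS library (log2 -0.17, edgeR adjusted p = 0.00482). Ctsh was at 31.7, 33.6 and 32.3 CPM with CA (-0.25, adjusted p = 0.0333), and Ctsl at 1089.6, 1122 and 973 CPM (-0.17, adjusted p = 0.0229), both below every LPS library. Grn was at 997, 1099.9 and 1019 CPM (-0.16, adjusted p = 0.0311), where replicate 2 of LPS + CA overlapped the LPS libraries. Only 3 members were called without LPS replicate 2 (541 of 13598 tested genes) or without LPS + CA replicate 3 (1439 of 13583), which left Ctsl at -0.10. Without LPS + CA replicate 2 the count was 9, with 882 of 13542 tested genes called. That fit added Ctsz and Ctss as lower and Lipa as higher (log2 0.18, adjusted p = 0.000979). Tfeb was at 4.90, 4.20 and 5.15 CPM, and its log2 change of 0.02 had a 95% interval of -0.25 to 0.28.

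With CGA none of the 31 tested members was called by edgeR, and 0.724% of all tested genes were called. An unadjusted p under 0.05 was found for 9 members. The share of all tested genes under that unadjusted threshold was not computed, so 9 cannot be set against the 0.724%. By DESeq2 3 members, Ctsb, Lamp2 and Ctsc, were called and fell by 0.10 to 0.14 on the log2 scale, with 3.04% of the genes it tested called. The largest differences in edgeR were Ctsh at 32.7, 34.1 and 31.1 CPM (log2 -0.24, edgeR adjusted p = 0.122) and Ctss at 492, 464 and 466 CPM (-0.17, adjusted p = 0.165). Both lay below the LPS libraries, which were at 36.9, 41.1 and 38.1 CPM for Ctsh and 529, 566 and 505 CPM for Ctss. Tfeb was at 5.25, 4.33 and 5.16 CPM, overlapping the LPS libraries (95% interval -0.20 to 0.33). Outside Tfeb the 95% intervals of all members lay between -0.39 and 0.24, so each bounds a change to under 1.5-fold, but a p above the threshold does not show that CGA left them unchanged.

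The adducts raised Tfeb and lowered several hydrolase genes. With CACys 13 of 31 genes were called, 4 higher and 9 lower, or 41.9%, against 14.3% of all tested genes (8.51% higher and 5.75% lower). With CGACys 18 were called, 5 higher and 13 lower, or 58.1%, against 29.1% (16.1% higher and 13% lower). Tfeb was the only member called with a change of 1.5-fold or more in either comparison. Of all 13251 tested genes 298 were called at that size with CACys and 842 with CGACys. The median log2 change of the set was -0.08 with each adduct, against 0.01 and 0.02 for all tested genes. The median absolute change was smaller in the set, 0.12 and 0.14 against 0.13 and 0.18 for all tested genes.

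Tfeb was at 7.44, 7.74 and 7.39 CPM with CACys and 9.99, 9.80 and 10.03 CPM with CGACys, and all 6 libraries lay above all LPS libraries and below all control libraries. The rise over LPS alone was 1.61-fold with CACys (log2 0.69, SE 0.12, edgeR adjusted p = 0.000269). It was 2.13-fold with CGACys (log2 1.09, SE 0.12, adjusted p = 6.49e-08). Tfe3 was not called with either adduct, with intervals of -0.10 to 0.11 and -0.10 to 0.10. Tfec moved opposite to Tfeb and fell to 1.77 ± 0.193 CPM with CACys (log2 -1.60, edgeR adjusted p = 8.37e-07) and 2.12 ± 0.219 CPM with CGACys (-1.34, adjusted p = 2.57e-06). Flcn, the folliculin gene, whose product promotes phosphorylation of TFEB at the lysosome, fell by 0.40 and 0.49 on the log2 scale, and Ppp3ca, a catalytic subunit of calcineurin, the phosphatase of TFEB, rose by 0.20 and 0.37. On the same list Lamtor4 fell with CGACys (log2 -0.27). The part of these genes in the Tfeb rise was not tested.

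Among the proteases Ctsc rose with both adducts. It was at 530.3, 562 and 549 CPM with CACys (log2 0.17, edgeR adjusted p = 0.00611) and 609, 608 and 566 CPM with CGACys (0.29, adjusted p = 5.27e-06), above every LPS library. The CACys call for Ctsc was lost without LPS replicate 3. Ctsz, which LPS had raised, fell with both, to 1823, 1779 and 1764 CPM (-0.17) and 1779.8, 1698 and 1699 CPM (-0.22), all under the LPS libraries. Tpp1 was at 136, 140.4 and 141 CPM with LPS and 118, 118 and 117 CPM with CGACys (-0.24, edgeR adjusted p = 0.00216), and Ctsd fell with CGACys to 1441 ± 21.0 CPM (-0.23). Ctsb fell with both (-0.14 and -0.15) and Ctsa with CGACys (-0.13). The CACys call for Ctsb was lost without LPS replicate 2 or LPS + CACys replicate 3, and the Ctsa call without LPS replicate 2 or LPS + CGACys replicate 3. Ctss was called higher with CGACys, although its libraries overlapped those of LPS (0.14, adjusted p = 0.0492), and the call was lost in 8 of 14 alternatives, among them leaving out LPS replicate 1 or 3 or LPS + CGACys replicate 1 (0.09) or 2.

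Every called glycosidase fell. Neu1 was at 79.8, 86.6 and 88.0 CPM with CACys (log2 -0.26, SE 0.05, edgeR adjusted p = 0.00148) and 77.6, 79.6 and 77.8 CPM with CGACys (-0.37, SE 0.05, adjusted p = 6.28e-06), below every LPS library. Gaa (chromosome 11, 119267963 to 119285458) was at 87.2, 91.6 and 84.6 CPM with LPS, 81.8, 74.5 and 73.1 CPM with CACys (-0.20, adjusted p = 0.0187) and 71.1, 71.8 and 74.2 CPM with CGACys (-0.28, adjusted p = 0.00048). Glb1 was at 129, 119 and 121 CPM with LPS and fell with both, to 111, 109 and 107 CPM (-0.18) and 106 ± 1.69 CPM (-0.22). Gaa and Glb1 had no call with LPS against control, and every adduct library of both genes also lay below every control library. The CACys call for Gaa was lost without LPS replicate 2 or LPS + CACys replicate 2 or 3, and that for Glb1 without LPS replicate 1. Gla, Hexa and Naglu were not called with either adduct.

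Asah1 led the lipid genes. It was at 122, 119 and 121 CPM with LPS, 99.9, 105 and 96.7 CPM with CACys (log2 -0.26, SE 0.05, edgeR adjusted p = 0.000212) and 91.6, 88.1 and 90.6 CPM with CGACys (-0.42, SE 0.05, adjusted p = 7.25e-08). Neither adduct group overlapped the LPS group, and both calls held in all 14 alternatives. Lipa rose with CGACys (0.13, adjusted p = 0.0449), a call lost in 8 alternatives, among them leaving out LPS replicate 1 or 3 or LPS + CGACys replicate 1 or 3. Psap, Grn and Smpd1 were not called with either.

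Among the membrane genes Scarb2 was at 113, 117 and 106 CPM with CACys (log2 0.16, edgeR adjusted p = 0.0205) and 127, 121 and 119 CPM with CGACys (0.30, adjusted p = 2.63e-05), above LPS and below control in every library. Without LPS replicate 1 or 3 or LPS + CACys replicate 1 or 2 the CACys call was lost. Cd68 was at 349, 366 and 353 CPM with LPS and 302, 297 and 299 CPM with CGACys, a fall without overlap (-0.25, adjusted p = 3.3e-05), and fell with CACys too (-0.17). Cln3 was at 52.6, 51.0 and 52.0 CPM with LPS and 56.9, 63.3 and 57.9 CPM with CACys (0.20, adjusted p = 0.0216), a call lost without LPS replicate 1, 2 or 3 or LPS + CACys replicate 2. Lamp1 and Gpnmb fell by 0.11 to 0.16 on the log2 scale with the adducts. With CACys the Lamp1 call was lost without any 1 of the 6 libraries compared, and the Gpnmb call without LPS replicate 1 or 2 or any 1 CACys library. Mcoln1 fell with CGACys (-0.24, adjusted p = 0.0118), a call lost without LPS replicate 1 or LPS + CGACys replicate 1 or 3.

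**Figure D4:**
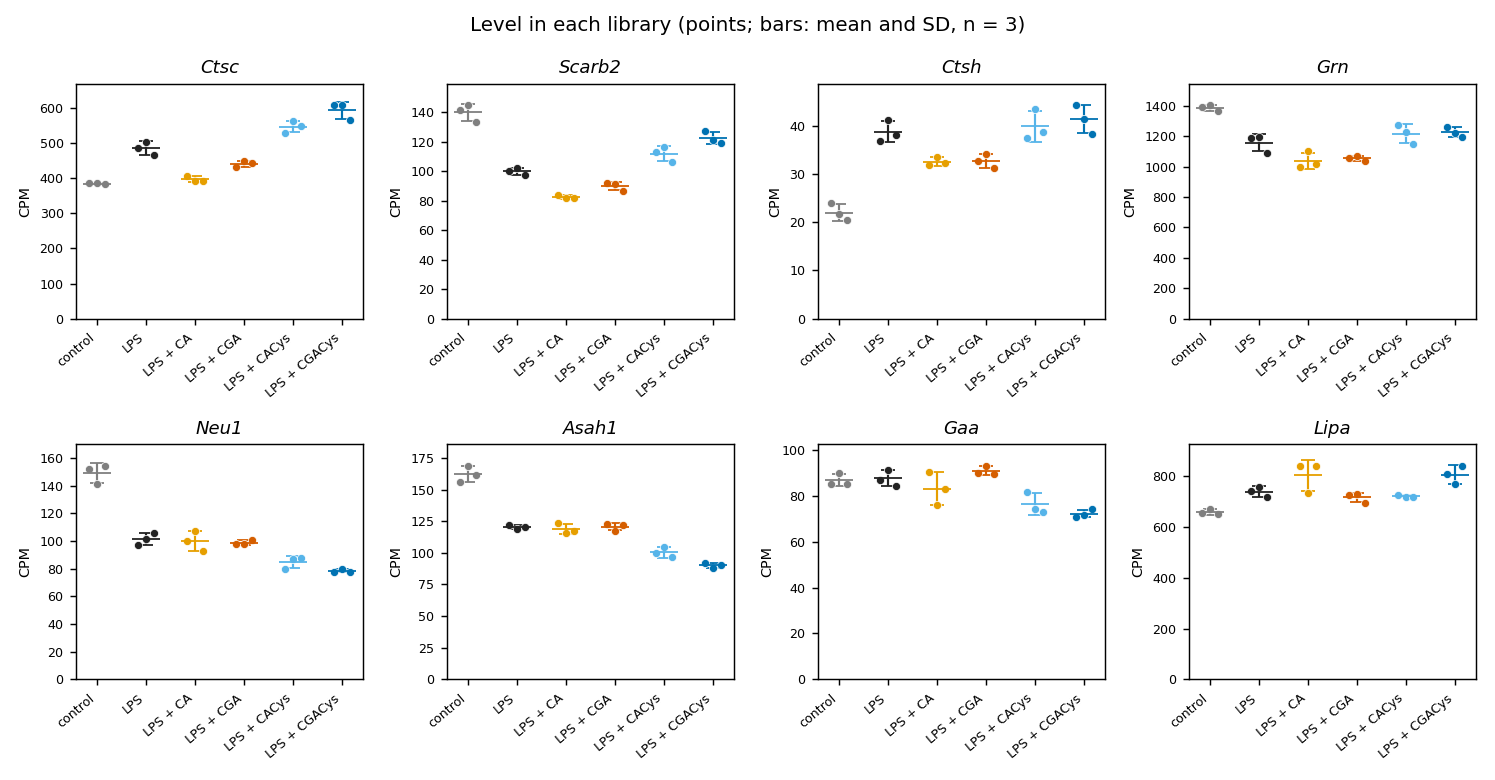
Level in CPM (vertical axes, from 0) of 8 lysosomal genes in each library (points) of the 6 groups, with mean and SD (bars, n = 3). Ctsc, Scarb2, Ctsh and Grn are lower with the parent acids than with the adducts, Neu1 and Asah1 step down from control to LPS to the adducts, and Lipa is high in 2 of 3 LPS + CA libraries.

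The same lists of other lysosomal genes were counted with the adducts, for which 29.1% of all tested genes were called with CGACys and 14.3% with CACys. With CGACys 1 of 33 further hydrolases was called higher and 12 lower, 2 of 18 proton pump subunits higher and 9 lower, and 6 of 22 transporters and channels higher and 4 lower. With CACys these counts were 1 and 5, 1 and 5, and 5 and 2. Galc, galactosylceramidase, fell with CGACys (log2 -0.62), and Slc29a3, the lysosomal nucleoside transporter, rose 1.92-fold. Npc2, the lumenal cholesterol carrier, was higher with both adducts (0.20 and 0.35) and lower with both parent acids (-0.21 and -0.23). Tcirg1 rose with both adducts, while the pump subunit gene Atp6v1f fell (-0.36 and -0.40). Sorting genes had no call with CACys and 3 higher of 8 with CGACys, nutrient sensing and TFEB control genes 1 higher and 2 lower of 19 and then 3 and 5, autophagy genes 1 and 2 of 22 and then 5 and 5, and cathepsin inhibitors 1 and 1 of 6 and then 1 and 3. Of these 7 lists CA gave 6 genes called higher and 6 lower, beside 2.3% and 5.42% of all tested genes, or 4 and 6 without LPS + CA replicate 2, a setting added after seeing the data. CGA gave only Tcirg1 and Npc2, both lower.

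Each adduct was compared with its parent acid at the same dose and time, and the parents and the adducts were compared with each other, which made 4 pairs of compounds. The adduct comparisons share no library. For CACys against CA 15 of 31 genes were called, 9 higher and 6 lower, or 48.4%, against 27.1% of all tested genes (15.2% higher and 11.9% lower). For CGACys against CGA 19 were called, 9 higher and 10 lower, or 61.3%, against 33.1% (18.2% higher and 14.9% lower). In 11 genes both adducts differed from their parents in the same direction, which was 73.3% of the CACys calls and 57.9% of the CGACys calls, and over all tested genes these shares were 67.3% and 55.1%.

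Tfeb, Scarb2, Ctsc, Ctsh, Ctss, Grn and Cln3 were higher with each adduct than with its parent. Tfeb rose by 0.67 (SE 0.12) with CACys over CA and by 1.02 (SE 0.12) with CGACys over CGA on the log2 scale (edgeR adjusted p = 9.58e-05 and 5.69e-08). Scarb2 was at 84.0, 81.5 and 82.0 CPM with CA and 92.1, 91.2 and 86.8 CPM with CGA, and every adduct library lay above them (log2 0.44 and 0.44, adjusted p = 6.25e-08 and 2.57e-08). Ctsc showed the same order, with 407, 393 and 392 CPM for CA and 432, 449 and 444 CPM for CGA (0.46 and 0.43). Ctsh was at 37.3, 43.5 and 38.7 CPM with CACys and 44.3, 41.4 and 38.3 CPM with CGACys, above the parent libraries (0.29 and 0.34, adjusted p = 0.00321 and 0.000511). Cln3 was at 48.1, 50.5 and 46.2 CPM with CA, under every CACys library (0.30, adjusted p = 0.000215), and its CGACys call was lost without LPS + CGA replicate 2 or 3 or LPS + CGACys replicate 1 (0.18). Grn rose by 0.23 and 0.22. Ctss was at 492, 464 and 466 CPM with CGA and 632, 576 and 561 CPM with CGACys (0.31, adjusted p = 4.84e-05), while its CACys libraries overlapped replicate 2 of LPS + CA (0.19) and that call was lost without LPS + CA replicate 1 or 3 or LPS + CACys replicate 1.

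Asah1, Neu1, Ctsd and Glb1 were lower with each adduct than with its parent. Asah1 was at 124, 115 and 117 CPM with CA and 123, 118 and 122 CPM with CGA, above every adduct library (log2 -0.24 and -0.42, edgeR adjusted p = 0.000207 and 3.44e-08). Neu1 was at 100.2, 107 and 92.8 CPM with CA and 97.6, 97.5 and 101 CPM with CGA, also without overlap (-0.24 and -0.33, adjusted p = 0.00133 and 1.99e-05). Ctsd was at 1639, 1966 and 1648 CPM with CA and 1554, 1523 and 1555 CPM with CACys, and fell by 0.18 with CACys over CA and by 0.19 with CGACys over CGA on the log2 scale. Without LPS + CA replicate 2 the Ctsd value for CACys was -0.09 (edgeR adjusted p = 0.037), and with all libraries the call was lost in a fit of only the groups compared (edgeR adjusted p = 0.132). Glb1 fell by 0.12 and 0.16. The Glb1 call for CACys was lost in 8 of 14 alternatives, among them leaving out LPS + CA replicate 2 or 3 or any CACys library. Gaa was at 90.2, 93.2 and 89.7 CPM with CGA and fell with CGACys (-0.33, adjusted p = 3.84e-05), and Mcoln1, Tpp1, Cd68, Gpnmb and Ctsz fell by 0.13 to 0.29 in that comparison. Of these calls Gpnmb was lost without LPS + CGA replicate 2, and Ctsz without any 1 CGA library or LPS + CGACys replicate 2 or 3. Without LPS + CA replicate 2, Gaa and Mcoln1 were also called lower with CACys over CA (log2 -0.18 and -0.21, edgeR adjusted p = 0.00985 and 0.0311). Ctsl, at 1089.6, 1122 and 973 CPM with CA and 1260.4, 1243 and 1275 CPM with CACys, rose with CACys over CA (0.25, adjusted p = 0.000153), without overlap. Lamp2 also rose with CACys over CA (0.12) and Hexa fell (-0.17). The Lamp2 call was lost without LPS + CA replicate 3 or LPS + CACys replicate 1 or 2, and the Hexa call without LPS + CA replicate 2 (-0.09) or LPS + CACys replicate 2. Psap rose with CGACys over CGA (0.11, adjusted p = 0.0487), a call lost when any 1 library of that comparison was left out.

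**Figure D5:**
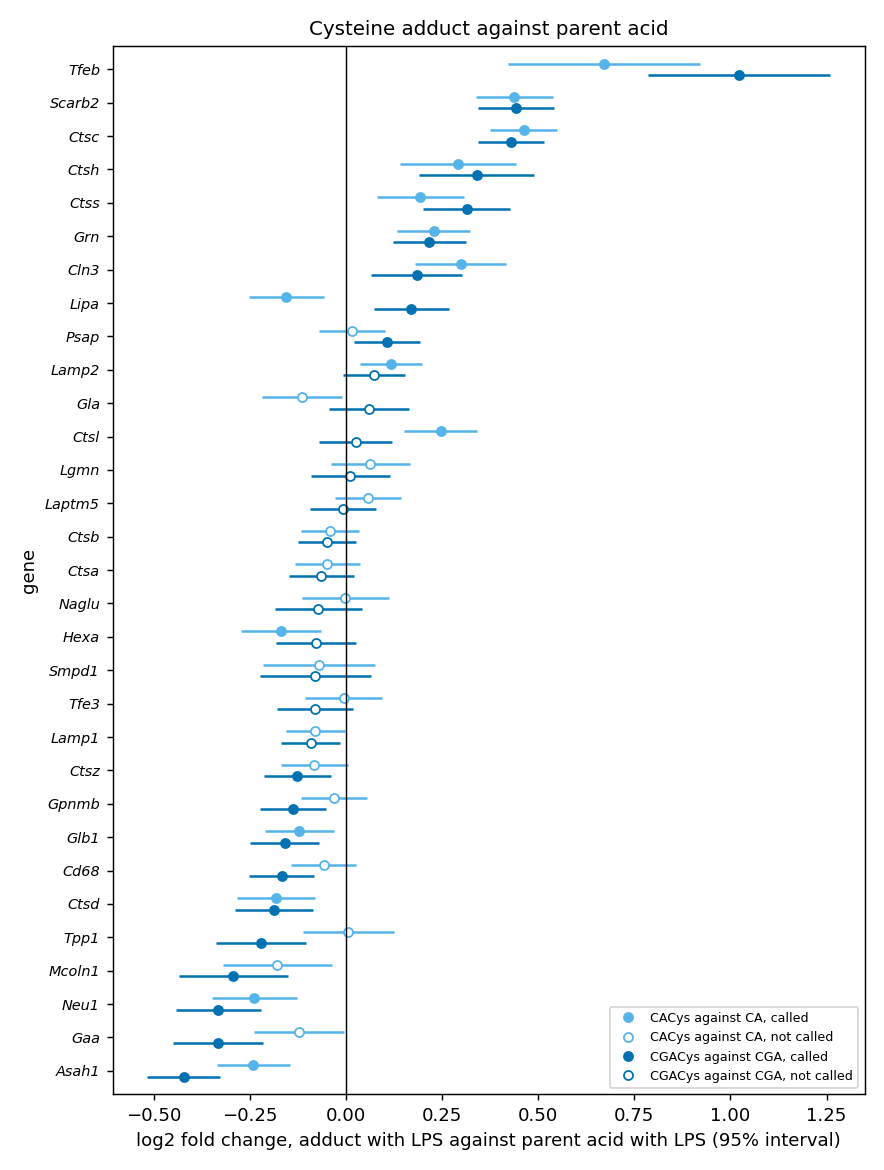
Log2 fold change with 95% interval (horizontal axis) of each tested lysosomal gene for CACys against CA (light) and CGACys against CGA (dark), both with LPS, with filled points where the gene was called. Tfeb lies farthest to the right in both, and Lipa is the only gene with filled points on opposite sides of 0.

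Lipa (chromosome 19, 34492316 to 34527474) was the 1 member called in opposite directions when each adduct was compared with its parent acid. It was at 839, 732 and 839.6 CPM with CA and 727, 719 and 719 CPM with CACys, a lower level with the adduct (log2 -0.15, SE 0.05, edgeR adjusted p = 0.0152). It was at 724, 730.4 and 694 CPM with CGA and 809.7, 768 and 841 CPM with CGACys, a higher level with the adduct (0.17, SE 0.05, adjusted p = 0.00588). The LPS libraries were at 739.9, 759 and 717 CPM, which CACys and CGA overlapped and all CGACys libraries exceeded. The difference between the adduct effects was 0.33 (SE 0.07, 95% interval 0.19 to 0.46, edgeR adjusted p = 0.00598). It was 0.39 without LPS + CA replicate 2, which lay below its fellows. The fall with CACys was lost without LPS + CA replicate 1 or LPS + CACys replicate 2. No other member was called for the difference between the adduct effects with all libraries, against 2.18% of all tested genes. An unadjusted p under 0.05, for which no share of all genes was computed, was found for 7 members. DESeq2 also called Ctsl (-0.22), with 5.79% of the genes it tested called. Without LPS + CA replicate 2 edgeR called Ctsl too (log2 -0.26, adjusted p = 0.00261), with 374 of 13542 tested genes called. For Tfeb the difference between the adduct effects was 0.35, with a 95% interval of 0.01 to 0.70 and an adjusted p of 0.312.

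The compounds that differ by the quinic acid ester were compared directly. For CGA against CA edgeR called none of the 31 members, with 1.38% of all tested genes called. An unadjusted p under 0.05, for which no share of all genes was computed, was found for 8 members. DESeq2 called Ctsc higher and Lipa lower, with 7.67% of the genes it tested called. In edgeR Ctsc differed by 0.15 (95% interval 0.07 to 0.24, adjusted p = 0.065) and Lipa by -0.17 (-0.26 to -0.07, adjusted p = 0.0701). Without LPS + CA replicate 2 Lipa was called lower with CGA (-0.23, adjusted p = 0.000528), and Ctsc was called higher without replicate 1 or 3 of that group. For the other members, Tfeb aside, the intervals lay between -0.26 and 0.25, and a p above the threshold does not show that CA and CGA act alike.

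For CGACys against CACys edgeR also called none of the 31 members, with 1.8% of all tested genes called. An unadjusted p under 0.05, for which no share of all genes was computed, was found for 7 members. DESeq2 called Lipa higher and Asah1 lower, with 3.75% of the genes it tested called. Tfeb was higher in every CGACys library than in every CACys library, by 0.40 on the log2 scale (95% interval 0.17 to 0.63, edgeR adjusted p = 0.0604). The intervals of Asah1 (-0.25 to -0.06), Lipa (0.06 to 0.26), Ctsc (0.03 to 0.21) and Scarb2 (0.03 to 0.23) did not include 0 either, with adjusted p between 0.0807 and 0.175. With p-values adjusted over all 10 comparisons at once, Tfeb, Asah1, Lipa and Ctsc were called. Calls among all 13251 tested genes then rose from 239 to 747. Outside Tfeb the intervals of all members lay between -0.25 and 0.26.

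Some members share their place in the genome with other genes, and whether the counts used strand is not given in the sources used here. By the RefSeq table of GRCm38.p6, Ctsb overlaps Fdft1, Ctsz overlaps Nelfcd, Asah1 overlaps Frg1, Glb1 overlaps Tmppe, Ctsa overlaps Pltp and Cln3 overlaps Apobr, and reads from these stretches cannot be assigned with certainty.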

How the data were processed

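Total RNA from RAW264.7 cells was sequenced, and the values deposited by the authors were raw read counts per Ensembl gene. Per the submitters' processing notes, mm10 was the genome build and HISAT and DESeq2 were among the tools, with no version given. The counting program, annotation release and use of strand are not given in the sources used here. Counts limit the precision of low genes, and intervals cover the spread between libraries.

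All 18 libraries were fitted in 1 model with a term per group in edgeR 4.0.16 (R 4.3.3, limma 3.58.1), with TMM factors, filterByExpr and robust dispersions (common biological coefficient of variation 5.68%, 12 residual degrees of freedom). The 13251 genes kept held at least 99.907% of each library's counts. Each of the 10 contrasts had a quasi-likelihood F test, adjusted over all these genes. The SE was taken as the size of the log2 change over root F. TMM factors were 1.13 to 1.15 in control and 0.943 to 0.997 with LPS, so shares of raw counts and CPM differ between those groups. Symbols came from the count table, and coordinates from RefSeq's GRCm38.p6 table, which matched 12411 tested genes. The method was tested on simulated counts.

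The members, the 7 lists of other lysosomal genes, the 7 lists of cell type markers and the naming rule were chosen with earlier results of these data known. The rule named up to 8 called members with the largest change per comparison, up to 4 genes per other list, and Tfeb, Tfe3, Mcoln1, Lamp1, Ctsd and Ctsb in LPS against control. Further members are given as summaries, and Tfeb in comparisons where it was not called, Npc2, Tcirg1 and the intervals for uncalled members were chosen after their values were seen. No library was left out, and no pair of libraries was a duplicate. Alternatives were other scaling factors, other filters, a replicate term, a fit of the groups compared, DESeq2 1.42.0, adjustment over all 10 comparisons and leaving out each library. For the other lysosomal genes, a fit without LPS + CA replicate 2 was added after seeing the data. A planned promoter motif search was not run, and 1 gene of the other lists is not reported here by name.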

Additional observations from a re-analysis of the deposited data

Results flagged for a closer look

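For Lipa, the lysosomal acid lipase gene, the change from parent acid to adduct differed between the compared acids. The difference between the adduct effects, CGACys over CGA minus CACys over CA, was 0.33 on the log2 scale (SE 0.07, edgeR adjusted p = 0.00598). The parts were 0.17 for CGACys over CGA, where all 3 CGACys libraries exceeded all 3 CGA libraries, and -0.15 for CACys over CA. The call held in all 20 alternatives, with the difference between 0.29 and 0.39. Compared directly, Lipa had no call in CGACys against CACys (0.16) or in CGA against CA (-0.17), though some alternatives called each. LPS + CA replicate 2 lay at 732 CPM, against 839 and 840 CPM in its fellows, and leaving it out gave the 0.39.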

How the results depend on the processing

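Of 97 calls of the 31 members over the 10 comparisons, 66 held in every alternative, 31 were lost in at least 1, and none changed sign. Of 1364 values recomputed for these calls, 1232 stayed past the threshold. Held calls were 20 of 25 for LPS, 2 of 6 for CA, 5 of 13 for CACys, 14 of 18 for CGACys, 9 of 15 for CACys against CA, 15 of 19 for CGACys against CGA, and the 1 for the difference between adduct effects.

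For CA against LPS 6 members became 3 with upper-quartile factors and 2 in a fit of only the groups compared, where CACys against CA fell from 15 to 9. Calls among all tested genes went from 1023 of 13251 to 1022 of 13251 and 434 of 12324. For CACys against CA they went from 3589 of 13251 to 2145 of 12476. For CGA against LPS 0 became 1 with no expression filter, 3 in the fit of the groups compared, 3 by DESeq2 and 6 with adjustment over all 10 comparisons. Calls among all tested genes went from 96 of 13251 to 290 of 27790, 283 of 12359, 255 of 8394 and 515 of 13251. For CGA against CA 0 became 1 with upper-quartile factors, 1 with no filter, 2 by DESeq2 and 3 with adjustment over all 10. Calls among all tested genes went from 183 of 13251 to 202 of 13251, 614 of 27790, 437 of 5700 and 821 of 13251. For CGACys against CACys 0 became 1 with no filter, 2 in the fit of the groups compared, 2 by DESeq2 and 4 with adjustment over all 10. Calls among all tested genes went from 239 of 13251 to 409 of 27790, 560 of 12525, 375 of 10010 and 747 of 13251. For the difference between adduct effects 1 became 2 with no filter, by DESeq2 and with adjustment over all 10. Calls among all tested genes went from 289 of 13251 to 457 of 27790, 455 of 7855 and 799 of 13251. The cause was not tested.

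Leaving out single libraries gave 22 to 25 calls for LPS, 3 to 9 for CA and 0 for CGA. It gave 8 to 10 for CACys (8 without LPS replicate 1, LPS replicate 2 or LPS + CACys replicate 2) and 15 to 17 for CGACys. For the compound pairs it gave 12 to 15 for CACys against CA, 15 to 17 for CGACys against CGA, 0 to 2 for CGA against CA and 0 for CGACys against CACys. The difference had 1 to 2. In the same order, calls among all tested genes were 7732 to 7854, 541 to 1439, 0 to 233, 1223 to 1694 and 3063 to 3326. For the compound pairs they were 2747 to 3977, 3620 to 3838, 45 to 1063 and 87 to 198, and for the difference 162 to 519. Replicate numbers did not pair the libraries, with correlations of same-numbered libraries from -0.0744 to 0.0754. A replicate block gave 25, 6, 0, 12 and 17 calls for LPS, CA, CGA, CACys and CGACys. It gave 15 and 19 for the adducts against their parents, 0 for CGA against CA, 0 for CGACys against CACys and 1 for the difference. Among all 13251 tested genes it gave, in that order, 8210, 1006, 197, 1853, 3791, 3547, 4316, 169, 273 and 275 calls.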

Other observations

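Of 22 autophagy genes tested, 4 were called higher and 1 lower with CA over LPS alone, beside 2.3% and 5.42% of all tested genes. The 1 called lower, Uvrag, had the largest change among these calls (log2 -0.37). Sqstm1, which encodes the autophagy receptor p62, rose with CA over LPS alone, from 4419 ± 70.5 to 5257 ± 205 CPM (log2 0.25, edgeR adjusted p = 0.000128), and fell with CACys to 3960.1 ± 66.2 CPM (-0.16). Against CA, Sqstm1 was lower with CGA (-0.27, edgeR adjusted p = 0.000453). Gabarapl1, which encodes an autophagosome protein of the Atg8 family, rose with CA from 105 ± 3.61 to 132 ± 7.25 CPM (0.33, edgeR adjusted p = 0.000177) and was lower with CGA than with CA (-0.23). Map1lc3b, the LC3B gene, also rose with CA (0.20) and fell with CGACys (-0.18). One CA library, replicate 2, stood apart, and these CA values were also computed without it, an alternative chosen after seeing the data. Sqstm1 and Gabarapl1 were then still higher with CA than with LPS alone (log2 0.22 and 0.33, edgeR adjusted p = 1.52e-05 and 4.36e-05) and lower with CGA than with CA (-0.24 for both, edgeR adjusted p = 4.07e-05 and 0.013). Map1lc3b was no longer called with CA (log2 0.14, edgeR adjusted p = 0.132).

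Of 6 genes tested on the cathepsin inhibitor list, 1 was called higher and 1 lower with CACys, beside 14.3% of all tested genes called. With CGACys 1 was called higher and 3 lower, beside 29.1%. Cstb, the cystatin B gene, was at 276 ± 4.25 CPM with LPS, 215 ± 21.7 CPM with CACys and 201 ± 1.88 CPM with CGACys (log2 -0.36 and -0.46, edgeR adjusted p = 0.00019 and 2.65e-06). Serpinb9, the only gene of the list called higher with either adduct, encodes an intracellular serpin that inhibits granzyme B, which is not a cathepsin. Its level was 211 ± 9.66 CPM with LPS and rose to 236 ± 6.48 and 269 ± 8.73 CPM (0.16 and 0.35).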
